A study of Mus musculus with 12 samples.

Results

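The genes described here encode a set of secreted factors that build and stabilise blood vessels, with their receptors: the vascular endothelial growth factors Vegfa and Vegfc with the receptors Kdr and Flt1, the angiopoietins Angpt1 and Angpt2, and the platelet-derived growth factors Pdgfa and Pdgfb with the receptors Pdgfra and Pdgfrb. The 10 genes were chosen by name, as ligands and receptors of these 3 families, out of the 21807 genes in the count tables, and all 10 passed the filter on low counts. They were measured by RNA-seq in mouse liver, in 12 libraries that form 4 groups of 3. NICD1/Akt livers, labelled as cholangiocarcinoma (CCA) tumour tissue of genotype NICD/myr-AKT, were taken 2 weeks (early stage, libraries 33, 34 and 35) and 3 weeks (advanced stage, libraries 1, 2 and 3) after hydrodynamic tail vein injection (HTVi) of 10 µg of a plasmid for the Notch1 intracellular domain (NICD1) and 10 µg of a plasmid for myristoylated Akt, together with the Sleeping Beauty transposase that inserts them into the genome. Control livers carried the label WT (libraries 30, 31 and 32 at 2 weeks, and 10, 11 and 12 at 3 weeks) and came from C57BL/6J mice. Their growth protocol describes healthy controls with no injection, so that plasmid and injection were not separated, although a further label of the controls reads 2 or 3 weeks post-HTVI like that of the NICD1/Akt livers. The study's methods describe 5-week-old male mice. In this model the plasmids enter hepatocytes of the intact liver. Each library is a piece of tissue that holds hepatocytes, vessels and stroma, in NICD1/Akt livers together with tumour cells. A lower level of a gene can therefore reflect fewer cells of a type or less RNA per cell, which bulk RNA cannot tell apart.

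VEGF-A, made by hepatocytes and other cells of the liver, acts on endothelial cells through Kdr (VEGF receptor 2), the main signalling receptor, while Flt1 (VEGF receptor 1) binds the ligand tightly and signals weakly, and a secreted form of Flt1 traps it. Angpt1 activates the endothelial receptor Tek (Tie2) and keeps vessels quiet, whereas Angpt2, released by activated endothelium, opposes it in most settings. PDGF ligands made by epithelial, endothelial and blood cells act on mesenchymal cells, with Pdgfra and Pdgfrb on fibroblasts, hepatic stellate cells and pericytes. Gene-level counts do not separate the secreted from the membrane form of Flt1, nor the splice forms of Vegfa.

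Total counts per library ran from 13136892 to 19594839. Library 32, labelled as a 2-week control, stood apart from its group, with the biliary and tumour-associated gene Spp1 at a CPM (read count scaled to a common library size) of 1875 against 56.6 and 53.7 in the other 2-week controls, and Akt1 at 381 CPM against 90.9 and 90.1. The Y-linked gene Ddx3y had 57.2 CPM in library 32, between 0 and 0.398 CPM in 5 libraries of the 2-week stage (30, 31, 33, 34 and 35), and 52.2 to 126 CPM in all 6 libraries of the 3-week stage, which goes against the male sex given in the methods for those 5. Library 35 stood apart from libraries 33 and 34 in the same direction, with Spp1 at 4256 CPM against 1054 and 1236 and Akt1 at 927 CPM against 285 and 325. The 2-week fold changes and the ratios are therefore also given without these 2 libraries, and the stages cannot be told apart from the split in Ddx3y. Levels below are CPM scaled by trimmed mean of M values (TMM) over the 12 libraries, and the labels do not say that libraries of a group came from separate animals, so p-values measure the spread between libraries.

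At 3 weeks the PDGF branch and Angpt2 rose in NICD1/Akt livers, while Vegfa fell and Kdr did not pass the test. Of the 10 genes, 7 were higher (Pdgfb, Pdgfa, Pdgfrb, Angpt2, Pdgfra, Vegfc and Flt1) and 1 was lower (Vegfa) at an adjusted p under 0.05 (edgeR quasi-likelihood test, Benjamini-Hochberg over 13408 genes). In the same comparison 38.9% of all genes tested were higher and 33.1% lower. The median log2 fold change was 1.22 over the 10 genes and 0.06 over all genes tested. In 9 of the 10 genes the control and NICD1/Akt libraries did not overlap, against 77.8% of all genes tested. The exception was Angpt1. The largest change was that of Pdgfb, 31.8-fold. With library-size scaling alone, given below as an alternative, 8 members were higher and none lower. Under that scaling 9076 of all 13408 genes tested were higher and 1287 lower.

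**Figure D1:**
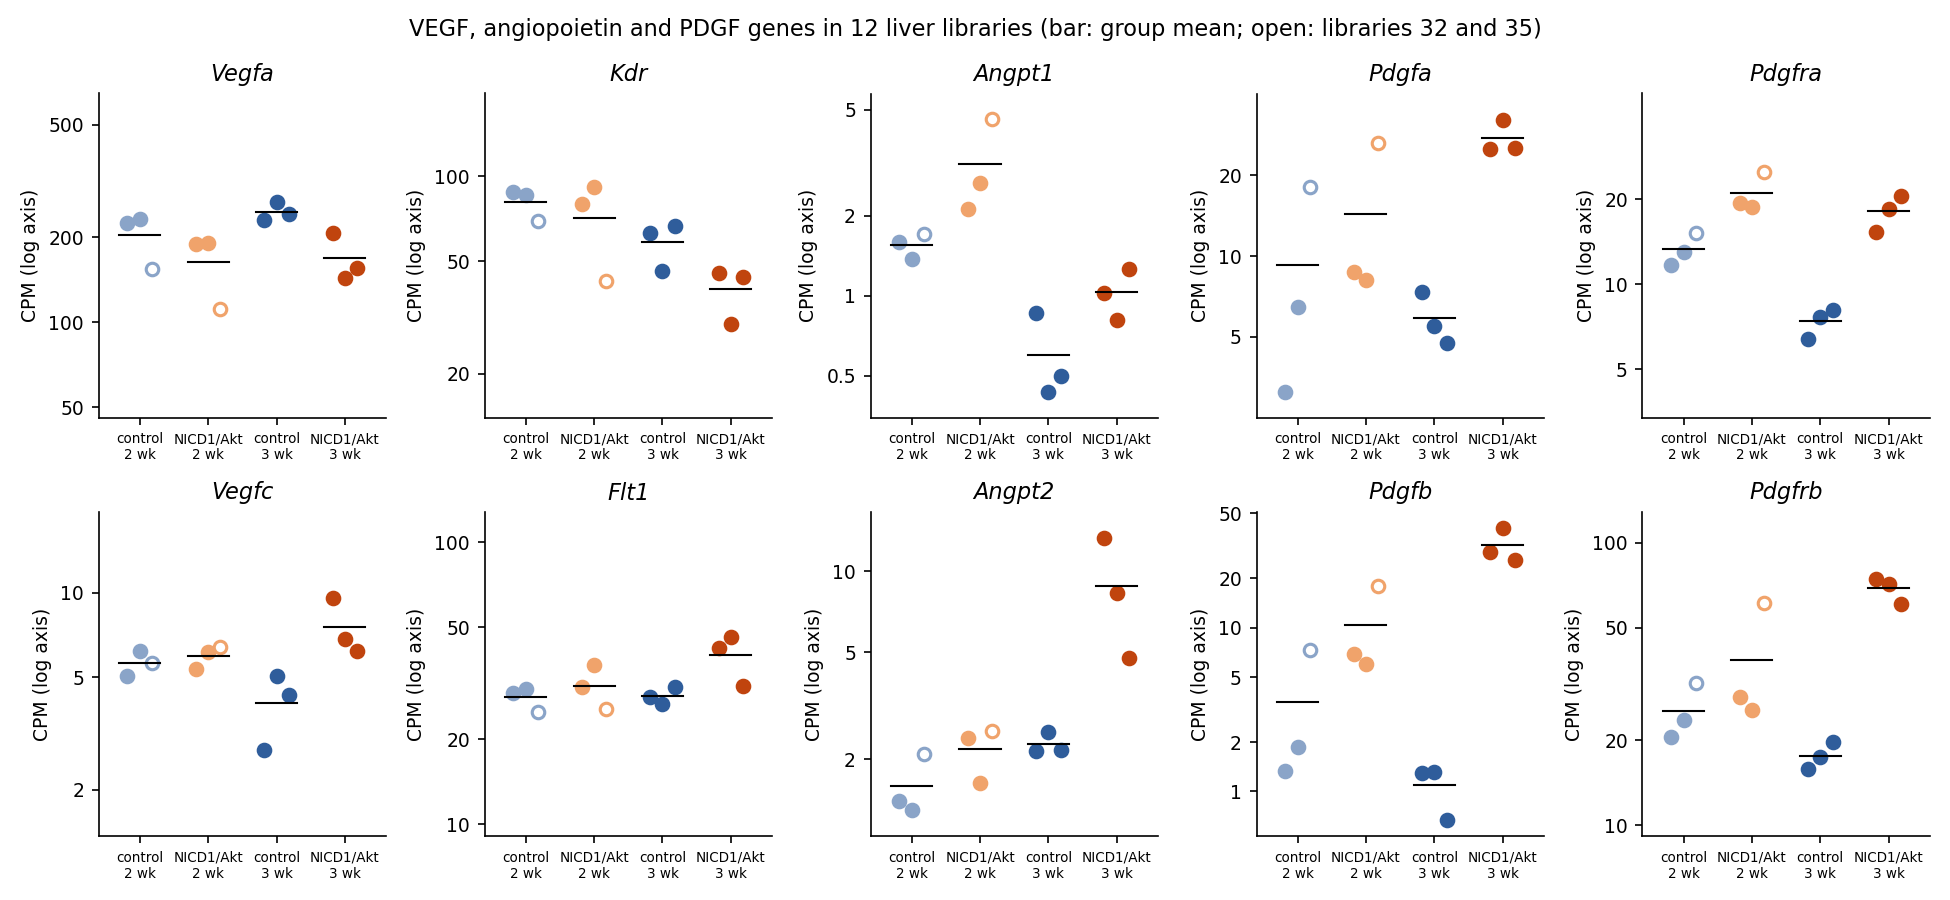
Level of each gene in every library, in TMM-scaled CPM on a log axis, by group, with a bar at the group mean and open points for libraries 32 and 35. Pdgfb sat between 0.67 and 1.31 CPM in the 3-week controls and between 26.0 and 40.8 CPM in the 3-week NICD1/Akt libraries, whereas Vegfa was lower in all 3 NICD1/Akt libraries at 3 weeks on this scale (log2 fold change -0.43, but 0.27 with library-size scaling alone).

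The promoter windows of 4 genes are shown because these genes, all on chromosome 5, include the pair of VEGF receptors that parted at 3 weeks and a PDGF ligand and receptor that rose together. Each window runs from 250 bases before to 50 bases after a RefSeq gene start (build GRCm38.p6) and is printed 5′ to 3′ on the gene's own strand. Windows of 6 of the 10 genes were searched (Vegfa, Vegfc, Kdr, Flt1, Pdgfa and Pdgfra). Capitals mark matches on either strand to 5 short motifs: the hypoxia-response core ACGTG, the GC box GGGCGG, the RBPJ core GTGGGAA, the ETS core CCGGAA and the TATA box TATAAA, and no 2 marked matches overlap. Kdr is at chr5:75978406-75978705 (minus strand), Flt1 at chr5:147725962-147726261 (minus), the upstream start of Pdgfa at chr5:138994895-138995194 (minus) and Pdgfra at chr5:75152001-75152300 (plus).
Kdr: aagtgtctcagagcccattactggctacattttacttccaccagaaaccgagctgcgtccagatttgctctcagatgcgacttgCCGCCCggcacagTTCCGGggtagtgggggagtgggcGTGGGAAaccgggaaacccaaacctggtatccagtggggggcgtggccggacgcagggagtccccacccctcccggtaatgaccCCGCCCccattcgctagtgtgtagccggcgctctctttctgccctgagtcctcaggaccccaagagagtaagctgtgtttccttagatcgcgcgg
Flt1: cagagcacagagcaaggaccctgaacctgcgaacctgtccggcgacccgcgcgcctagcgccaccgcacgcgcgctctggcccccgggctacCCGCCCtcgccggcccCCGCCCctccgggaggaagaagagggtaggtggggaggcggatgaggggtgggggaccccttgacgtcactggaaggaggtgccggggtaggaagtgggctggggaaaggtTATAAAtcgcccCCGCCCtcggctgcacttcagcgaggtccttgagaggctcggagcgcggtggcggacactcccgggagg
Pdgfa: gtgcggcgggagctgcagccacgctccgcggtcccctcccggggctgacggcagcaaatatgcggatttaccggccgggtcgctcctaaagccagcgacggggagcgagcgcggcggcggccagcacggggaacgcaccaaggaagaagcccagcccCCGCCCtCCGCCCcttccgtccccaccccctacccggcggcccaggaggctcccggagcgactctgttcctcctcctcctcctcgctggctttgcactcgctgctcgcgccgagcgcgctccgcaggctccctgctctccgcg
Pdgfra: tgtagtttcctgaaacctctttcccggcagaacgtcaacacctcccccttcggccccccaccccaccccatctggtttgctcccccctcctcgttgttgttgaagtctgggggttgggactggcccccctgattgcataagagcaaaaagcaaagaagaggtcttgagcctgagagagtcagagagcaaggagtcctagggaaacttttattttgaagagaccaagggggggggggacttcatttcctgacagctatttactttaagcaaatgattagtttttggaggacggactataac

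The Kdr window held the letters of the RBPJ core, the site type bound by the nuclear partner of NICD1, at 129 bases before the start, with an ETS core at 153 bases and GC boxes at 166 and 45 bases before it. Flt1 had a TATA box 31 bases before the start and 3 GC boxes, Pdgfa had 2 GC boxes in the upstream window, and Pdgfra had none of the 5 motifs. Of the windows not printed, those of Vegfa and Vegfc held GC boxes, and the second Vegfa window also held a hypoxia-response core, 211 bases before the second start. Over 32851 promoter windows of the same length the RBPJ core was present in 6.38%, the ETS core in 14.9%, the TATA box in 13.6%, the hypoxia-response core in 19.6% and the GC box in 35.7%. A match is only a match of letters. GC content was 51% in the Pdgfra window and 70.7% in that of Flt1, against a median of 52.7% over all windows.

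Vegfa (ENSMUSG00000023951.19, chromosome 17), the principal endothelial growth factor, had the highest level per length of the 10 genes in every group. At 3 weeks it was at 231, 267 and 242 CPM in the controls and at 208, 144 and 155 CPM in NICD1/Akt livers. No NICD1/Akt library reached the lowest control. The fold change was 1.34 downward (log2 fold change -0.43, SE 0.15, adjusted p = 0.031), but the direction turned with library-size scaling alone (0.27, adjusted p = 0.0887), a scaling that also moved the median of all genes from 0.06 to 0.77. The call was lost in 9 of 17 alternatives, among them that scaling and those that left out library 11 (adjusted p = 0.0782), library 12 (0.0631), library 2 (0.0586) or library 3 (0.0868). At 2 weeks the values were 226, 232 and 155 CPM in the controls and 189, 191 and 111 CPM in NICD1/Akt livers, so the groups overlapped and library 32, the lowest control, lay below libraries 33 and 34 (log2 fold change -0.31, SE 0.27, adjusted p = 0.599). Without library 32 the 2-week value was -0.49 (adjusted p = 0.362) and without library 35 it was -0.12 (adjusted p = 0.91).

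Vegfc (ENSMUSG00000031520.7, chromosome 8), a growth factor of lymphatic vessels that acts mainly through Flt4, moved the other way. It was at 2.76, 5.05 and 4.34 CPM in the 3-week controls and at 9.59, 6.85 and 6.20 CPM in NICD1/Akt livers, every one of which lay above the highest control. It rose by a log2 fold change of 1.02 (SE 0.26, adjusted p = 0.00751), and the call was lost only when the controls of both stages were used together (0.64, adjusted p = 0.068). At 2 weeks all 6 libraries lay between 5.06 and 6.41 CPM and the log2 fold change was 0.10 (SE 0.20, adjusted p = 0.83), with 0.09 without library 32 and 0.02 without library 35. The ratio of Vegfa to Vegfc counts within a library, which does not depend on scaling, was 82.5, 52.4 and 55.2 in the 3-week controls and 21.6, 20.95 and 24.99 in the NICD1/Akt livers. At 2 weeks it was 44.3, 37.2 and 27.2 in controls and 34.9, 30.9 and 17.3 in NICD1/Akt livers, which overlapped. Over both stages the log2 ratio was lower by 0.94 on average in NICD1/Akt livers (mean difference -0.94, exact permutation test within stages, two-sided, p = 0.02, adjusted over 9 ratios p = 0.036). Without library 32 the mean difference was -1.04 (adjusted p = 0.0225), and without library 35 it was -0.79 (-0.11 at 2 weeks, adjusted p = 0.063) and did not pass.

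Kdr (ENSMUSG00000062960.11), the main VEGF-A receptor of endothelium, was at 63.0, 46.1 and 66.6 CPM in the 3-week controls and at 45.6, 30.1 and 43.8 CPM in NICD1/Akt livers. The groups did not overlap, but the highest NICD1/Akt value, in library 1, lay just below the lowest control, library 11. The log2 fold change was -0.44 (SE 0.19, unadjusted p = 0.0475, adjusted p = 0.0643), which did not pass, and it was 0.26 with library-size scaling alone. In 6 of 17 alternatives it did pass, among them DESeq2 (adjusted p = 0.0477) and the use of all 6 controls (-0.81, adjusted p = 0.0144). At 2 weeks Kdr was at 87.8, 86.2 and 69.4 CPM in controls and at 79.8, 91.4 and 42.7 CPM in NICD1/Akt livers, with the lowest value in library 35 (log2 fold change -0.18, SE 0.28, adjusted p = 0.762). The 2-week value was -0.29 without library 32 and turned to 0.07 without library 35.

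Flt1 (ENSMUSG00000029648.14), the tight-binding VEGF receptor, rose where Kdr did not. It was at 28.3, 26.6 and 30.7 CPM in the 3-week controls and at 41.98, 46.3 and 30.9 CPM in NICD1/Akt livers. Library 3 was barely above the highest control and the other NICD1/Akt libraries were well clear of it. This was a log2 fold change of 0.60 (SE 0.15, adjusted p = 0.00674), and the call was kept in all 17 alternatives, from 0.46 to 1.31. At 2 weeks the levels overlapped, with 29.2, 30.3 and 25.1 CPM in controls and 30.6, 36.6 and 25.7 CPM in NICD1/Akt livers (log2 fold change 0.14, SE 0.16, adjusted p = 0.676), and the value was 0.06 without library 32 and 0.24 without library 35.

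The balance of the VEGF receptors shifted within the libraries. The ratio of Flt1 to Kdr counts was 0.33, 0.35 and 0.36 in the 2-week controls and 0.38, 0.40 and 0.60 in the 2-week NICD1/Akt livers, without overlap and with the highest value in library 35. At 3 weeks it was 0.45, 0.58 and 0.46 in controls and 0.92, 1.54 and 0.71 in NICD1/Akt livers, again without overlap. The log2 ratio was higher by 0.38 at 2 weeks and by 1.02 at 3 weeks, 0.70 on average (exact permutation test, two-sided, p = 0.005, the smallest it allows, adjusted p = 0.015), and by 0.71 on average without library 32 (adjusted p = 0.0225). Without library 35 the 2-week difference was 0.17 and the average 0.59 (adjusted p = 0.0225). Against the mean log2 level of 8 pan-endothelial genes, Kdr was lower by 0.44 on average (mean difference -0.44, exact permutation p = 0.015, adjusted p = 0.0338), -0.40 at 2 weeks and -0.49 at 3 weeks. Without library 32 the average was -0.49 (adjusted p = 0.0225), and without library 35 it was -0.32 (-0.15 at 2 weeks, adjusted p = 0.063) and did not pass. The corresponding difference of Flt1 was 0.25 (exact permutation p = 0.095, adjusted p = 0.122), -0.03 at 2 weeks and 0.52 at 3 weeks, and the average was 0.21 without library 32 and 0.27 without library 35.

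Endothelial markers moved as follows beside these receptors. Of the 8 pan-endothelial genes, Cdh5 and Emcn were higher and Tie1 lower at 3 weeks (median log2 fold change 0.16), and their summed level was 168 to 193 CPM in controls and 157 to 196 CPM in NICD1/Akt livers. Of 8 genes of liver sinusoidal endothelium, the fenestrated lining of the liver capillaries, 6 were lower and none higher (median -0.62, or 0.09 with 2 lower and 2 higher when only library size was scaled), and the sum was 544 to 603 CPM in controls and 302 to 353 CPM in NICD1/Akt livers. Of 6 genes of other vascular endothelium, Cd34, Vwf and Edn1 were higher (median 1.35), with sums of 21.4 to 23.1 CPM and 74.4 to 103 CPM. None of these lists had a marker at 0 in a whole group. At 2 weeks the sinusoidal sum was 526 to 710 CPM in controls and 373 to 743 CPM in NICD1/Akt livers, the 373 in library 35. The part of these shifts in the levels of Kdr and Flt1 was not tested.

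**Figure D2:**
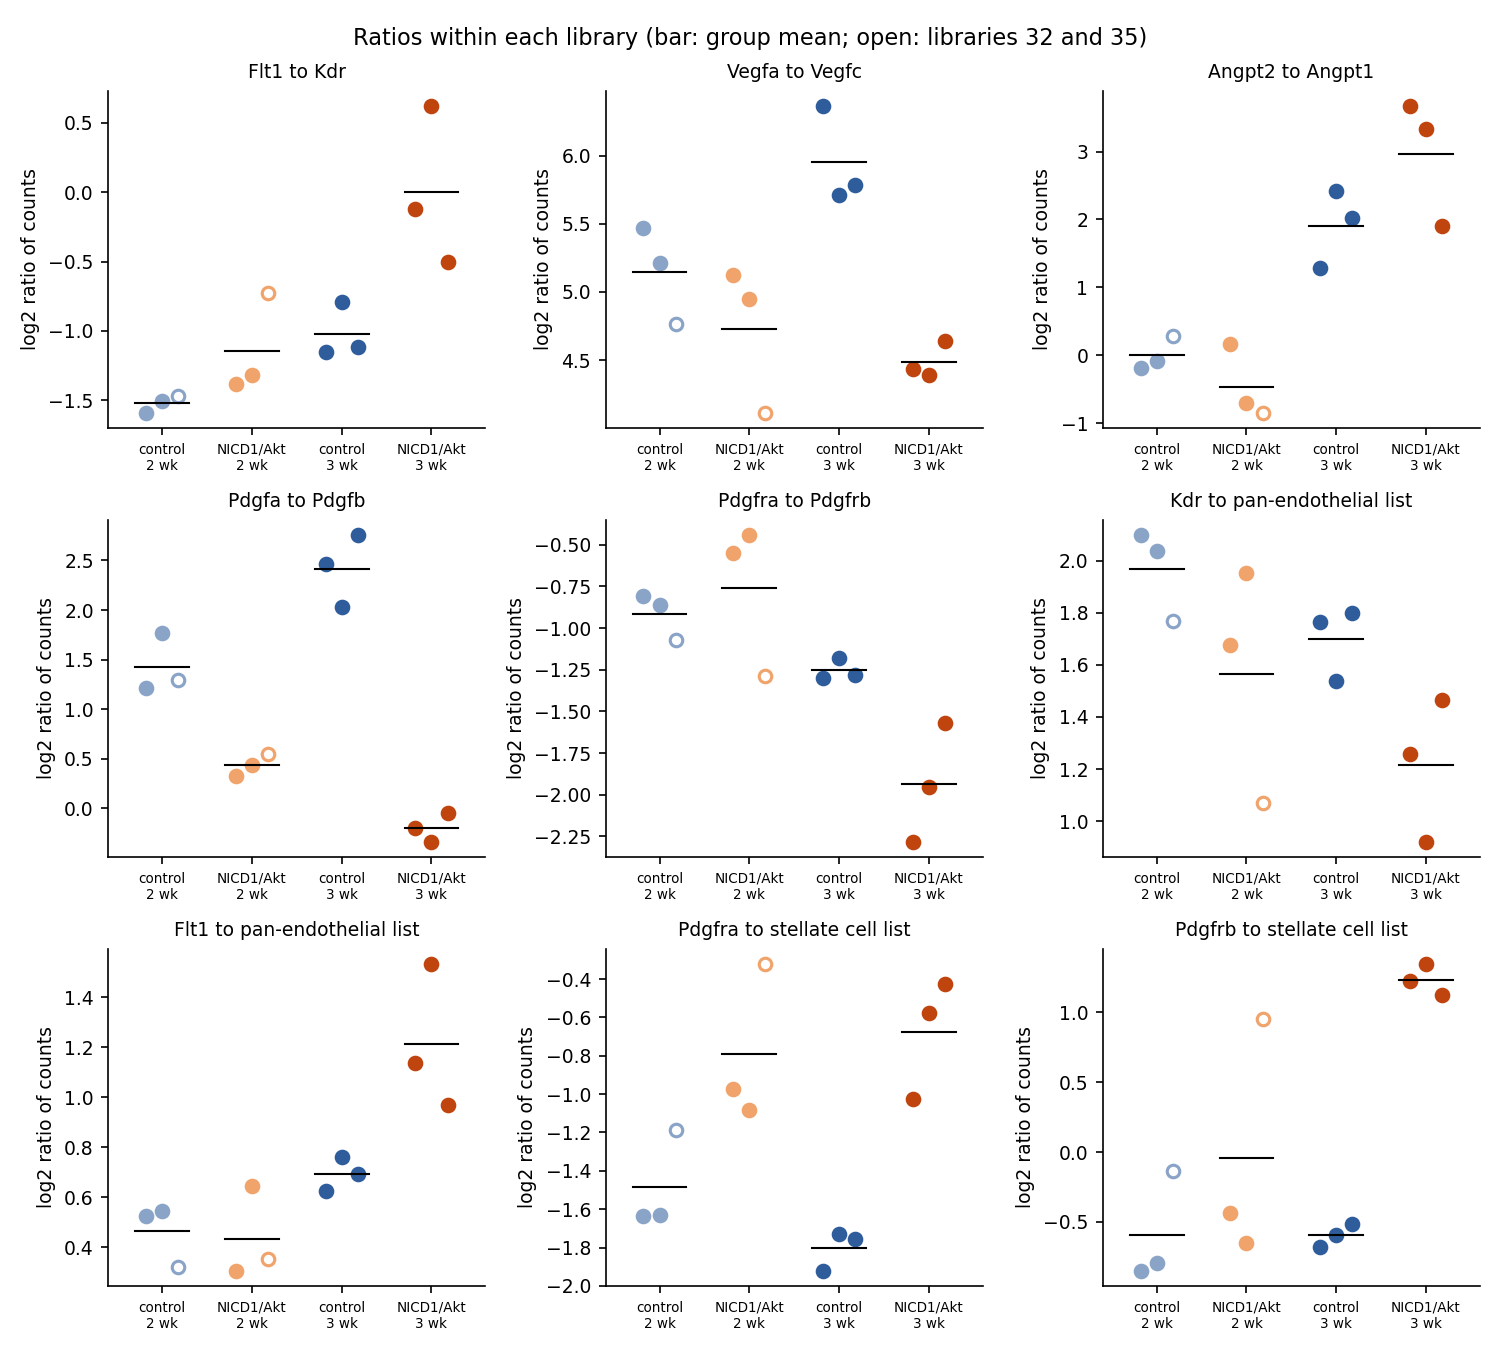
Log2 ratio of counts of 2 genes, or of a gene to the mean log2 level of a marker list, within each library, by group, with a bar at the group mean and open points for libraries 32 and 35. The ratio of Pdgfa to Pdgfb was lower and that of Flt1 to Kdr higher in NICD1/Akt livers at both stages without overlap, whereas the ratios of Angpt2 to Angpt1 and Pdgfra to Pdgfrb had no common direction at 2 and 3 weeks.

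Angpt1 (ENSMUSG00000022309.10, chromosome 15), the agonist of Tek, was among the lowest of the 10 genes. It had 10, 5 and 6 reads in the 3-week controls and 27, 22 and 27 in NICD1/Akt livers, or 0.86, 0.44 and 0.50 CPM against 1.02, 0.81 and 1.26 CPM. Library 2 fell below control library 10. The log2 fold change was 0.88 (SE 0.38, adjusted p = 0.0655) and did not pass. In 4 of 17 alternatives it did pass, with library-size scaling (1.58, adjusted p = 0.00406), upper-quartile scaling (1.04, adjusted p = 0.0356), the likelihood ratio test (adjusted p = 0.0388) and without library 10 (1.23, adjusted p = 0.0442), whereas it was -0.08 (adjusted p = 0.901) when the controls of both stages were used. At 2 weeks Angpt1 was at 1.597, 1.37 and 1.70 CPM in controls and at 2.12, 2.66 and 4.60 CPM in NICD1/Akt livers, all above the controls and highest in library 35. The 2-week log2 fold change was 1.03 (SE 0.39, unadjusted p = 0.0345, adjusted p = 0.52). It was 1.10 without library 32 (unadjusted p = 0.0613) and 0.61 without library 35 (unadjusted p = 0.126).

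Angpt2 (ENSMUSG00000031465.7, chromosome 8), the antagonist made by activated endothelium, rose at 3 weeks. Controls were at 2.16, 2.52 and 2.17 CPM, and NICD1/Akt livers at 13.3, 8.32 and 4.75 CPM. Every NICD1/Akt library lay above the controls, but they spread widely, and library 3 had the lowest value of the 3, as it did for Flt1 and Vegfc. The log2 fold change was 2.07 (SE 0.38, adjusted p = 0.00134) and was kept in all 17 alternatives, from 1.64 to 2.77. At 2 weeks the levels of 1.40, 1.30 and 2.09 CPM in controls and 2.39, 1.63 and 2.56 CPM in NICD1/Akt livers overlapped only through library 32 (log2 fold change 0.47, SE 0.36, adjusted p = 0.569), and the value was 0.71 without library 32 (adjusted p = 0.394) and 0.33 without library 35 (adjusted p = 0.881).

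The ratio of Angpt2 to Angpt1 counts differed more between stages than between conditions. It was 0.88, 0.95 and 1.22 in 2-week controls and 1.12, 0.62 and 0.56 in 2-week NICD1/Akt livers, and 2.43, 5.36 and 4.08 in 3-week controls and 12.8, 10.1 and 3.73 in 3-week NICD1/Akt livers. Values of the NICD1/Akt livers overlapped those of the controls at both stages. The mean log2 difference was 0.30 (exact permutation p = 0.485, adjusted p = 0.485), 0.37 without library 32 and 0.39 without library 35, and the Angpt1 counts behind the 3-week controls were 5 to 10.

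Pdgfb (ENSMUSG00000000489.8, chromosome 15), a ligand that binds both PDGF receptors and recruits pericytes, changed most of the 10 genes. It had 15, 15 and 8 reads in the 3-week controls and 763, 1107 and 559 in NICD1/Akt livers, or 1.29, 1.31 and 0.67 CPM against 28.9, 40.8 and 26.0 CPM. The log2 fold change was 4.99 (SE 0.28, adjusted p = 1.87e-06) and was kept in all 17 alternatives, from 3.78 to 5.71. At 2 weeks controls were at 1.33, 1.88 and 7.34 CPM and NICD1/Akt livers at 6.91, 5.99 and 18.1 CPM. Library 32 was the high control and lay above libraries 33 and 34. The 2-week log2 fold change was 1.58 (SE 0.75, unadjusted p = 0.0755, adjusted p = 0.52). It was 2.71 without library 32 (SE 0.63, unadjusted p = 0.00492, adjusted p = 0.195) and 0.87 without library 35 (adjusted p = 0.834).

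Pdgfa (ENSMUSG00000025856.16), a ligand of Pdgfra made by epithelial and other cells, was at 7.33, 5.48 and 4.75 CPM in the 3-week controls and at 25.2, 32.3 and 25.3 CPM in NICD1/Akt livers. The groups were far apart, and the log2 fold change was 2.36 (SE 0.18, adjusted p = 1.05e-05), from 1.87 to 3.07 in the 17 alternatives. At 2 weeks it was at 3.13, 6.49 and 18.1 CPM in controls and at 8.70, 8.14 and 26.4 CPM in NICD1/Akt livers. Libraries 32 and 35 were the high value of their group, and the log2 fold change of 0.67 (SE 0.73, adjusted p = 0.675) was 1.62 without library 32 and -0.14 without library 35. Pdgfa overlaps 6330403L08Rik on the opposite strand.

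The ratio of Pdgfa to Pdgfb counts was lower in every NICD1/Akt library than in any control of the same stage, libraries 32 and 35 included. It was 2.32, 3.42 and 2.46 in 2-week controls and 1.26, 1.36 and 1.46 in 2-week NICD1/Akt livers. At 3 weeks it was 5.52, 4.10 and 6.76 in controls and 0.87, 0.79 and 0.97 in NICD1/Akt livers, where Pdgfb had more reads than Pdgfa in each of the 3. The log2 ratio differed by -0.99 at 2 weeks and by -2.61 at 3 weeks, -1.80 on average (exact permutation test, two-sided, p = 0.005, the smallest it allows, adjusted p = 0.015), and by -1.83 without library 32 or without library 35 (adjusted p = 0.0225 in each).

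Pdgfrb (ENSMUSG00000024620.13), the PDGF receptor of pericytes and activated stellate cells, was at 15.8, 17.4 and 19.8 CPM in the 3-week controls and at 74.7, 71.7 and 60.8 CPM in NICD1/Akt livers. It rose by 2.09 on the log2 scale (SE 0.12, adjusted p = 2.48e-06), and it stayed between 1.68 and 2.79 in the 17 alternatives. At 2 weeks controls were at 20.6, 23.6 and 31.9 CPM and NICD1/Akt livers at 28.4, 25.5 and 61.1 CPM. Libraries 33 and 34 lay below library 32, and library 35 alone reached the 3-week range. The 2-week log2 fold change of 0.62 (SE 0.37, adjusted p = 0.52) was 0.82 without library 32 and 0.08 without library 35.

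Pdgfra (ENSMUSG00000029231.16), the PDGF receptor of fibroblasts and portal mesenchyme, was at 6.38, 7.66 and 8.09 CPM in the 3-week controls and at 15.3, 18.5 and 20.5 CPM in NICD1/Akt livers. It rose by 1.41 on the log2 scale (SE 0.16, adjusted p = 7.52e-05), from 0.81 to 2.12 in the 17 alternatives. Pdgfra and Angpt1 were the only members whose 2-week groups did not overlap, with 11.7, 12.98 and 15.1 CPM of Pdgfra in controls and 19.4, 18.8 and 24.98 CPM in NICD1/Akt livers. Its 2-week log2 fold change was 0.68 (SE 0.18, unadjusted p = 0.0072, adjusted p = 0.52), 0.78 without library 32 and 0.51 without library 35. Pdgfra overlaps Gm42802 and Gm42803 on the opposite strand and the microRNA gene Mir7025 on its own.

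Both PDGF receptors were also higher relative to a list of 8 stellate cell genes. Over both stages Pdgfrb passed the adjusted threshold only with library 35 included. At 3 weeks its log2 values ran from -0.68 to -0.52 in controls and from 1.13 to 1.35 in NICD1/Akt livers, without overlap. The log2 level of Pdgfrb relative to the list was higher by 1.19 on average, 0.55 at 2 weeks and 1.83 at 3 weeks (exact permutation p = 0.025, adjusted p = 0.0375), and that of Pdgfra by 0.91, 0.69 at 2 weeks and 1.13 at 3 weeks (exact permutation p = 0.005, adjusted p = 0.015). Without library 35 the 2-week value of Pdgfrb was 0.05 and its average 0.94 (adjusted p = 0.075), which did not pass, and the values of Pdgfra were 0.46 and 0.79 (adjusted p = 0.03). Without library 32 the averages were 1.30 and 0.98 (adjusted p = 0.0225 in each). The ratio of Pdgfra to Pdgfrb did not pass (mean difference -0.26, exact permutation p = 0.245, adjusted p = 0.276), with 0.15 at 2 weeks and -0.68 at 3 weeks, and averages of -0.30 without library 32 and -0.13 without library 35. Of the 9 ratios 6 passed, and 6 did so without library 32 but 3 without library 35 (Pdgfa to Pdgfb, Flt1 to Kdr and Pdgfra to the stellate cell list).

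Mesenchymal and epithelial markers moved beside the PDGF genes at 3 weeks. Of the 8 stellate cell genes, Rgs5, Ngfr and Des were higher and Ecm1 and Hgf lower (median -0.11, or 0.59 with library-size scaling alone), with sums of 354 to 398 CPM in controls and 395 to 433 CPM in NICD1/Akt livers. All 9 myofibroblast and matrix genes were higher (median 4.53), with sums of 68.1 to 152 CPM and 2486 to 3442 CPM. Of 5 smooth muscle and pericyte genes Cspg4, Myh11 and Notch3 were higher and Cnn1 and Mustn1 did not pass, with sums of 8.37 to 14.4 CPM and 127 to 169 CPM. Most of the latter sum was Cspg4, at a mean of 115 CPM in NICD1/Akt livers and 0.28 CPM in controls. Of 7 biliary genes 6 were tested and all 6 were higher (median 3.34), with sums of 92.7 to 135 CPM and 3454 to 4051 CPM. Most of the biliary sum in NICD1/Akt livers was Spp1, at a mean of 3220 CPM. In contrast, all 7 hepatocyte genes (median -1.69) and all 5 Kupffer cell genes were lower (7 and 2 with library-size scaling alone), whereas 6 of 7 monocyte and macrophage genes were higher. Platelets carry PDGF, and of 5 platelet and megakaryocyte genes 2 were tested, of which Itga2b was lower (none was with library-size scaling alone), with sums of 4.57 to 6.34 CPM in controls and 2.14 to 4.55 CPM in NICD1/Akt livers and Gp1bb at 0 throughout. In library 32 the biliary sum was 2030 CPM and the myofibroblast sum 1403 CPM, against 87.0 to 89.1 CPM and 200.2 to 230 CPM in the other 2-week controls, and Pdgfb and Pdgfa were high in that same library. Spp1 alone made up 1875 CPM of its biliary sum. The part of these cell types in the PDGF levels was not tested.

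**Figure D3:**
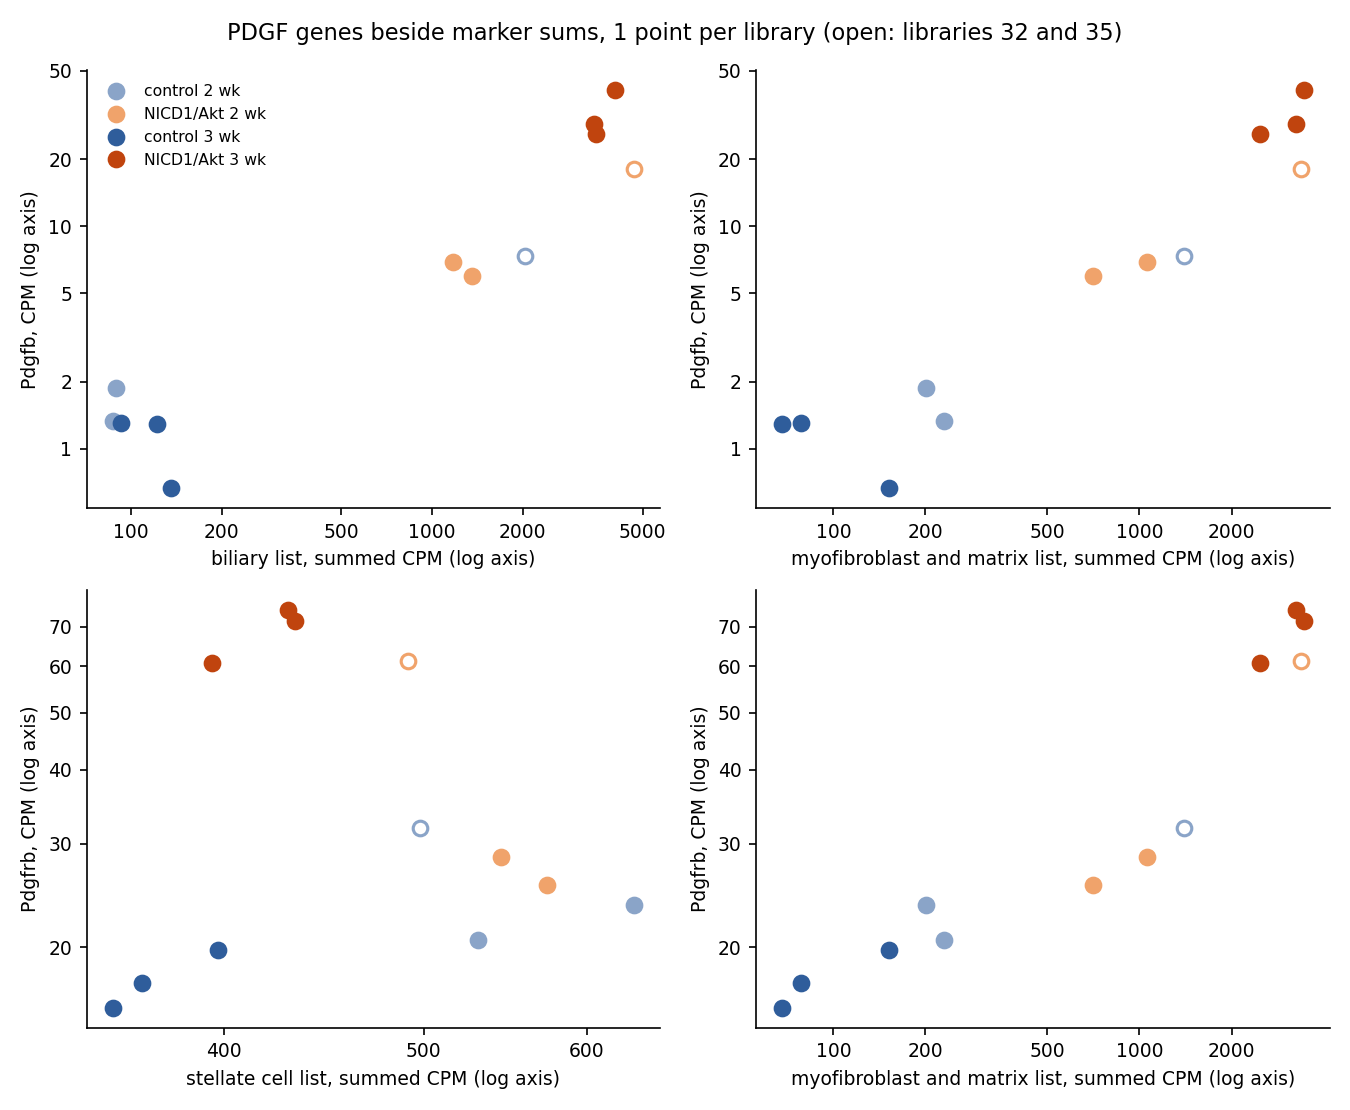
Pdgfb and Pdgfrb levels (CPM) against the summed level of marker lists, both on log axes, 1 point per library, with open points for libraries 32 and 35. Library 32 lies at 2030 CPM of biliary markers (1875 CPM of it Spp1) and 7.34 CPM of Pdgfb, apart from the other controls. The 3-week NICD1/Akt libraries combine 60.8 to 74.7 CPM of Pdgfrb with stellate cell sums of 395 to 433 CPM.

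At 2 weeks none of the 10 genes passed the adjusted threshold, as did 0% of the 13041 genes tested by the edgeR quasi-likelihood test (limma-voom gave 0, the edgeR likelihood ratio test 7 higher and 5 lower, and DESeq2 12 higher and 13 lower). Before adjustment 2 members, Pdgfra and Angpt1 (Pdgfra alone without library 30, 31 or 35), had a p under 0.05, against 8.59% of all genes (1120). Their groups, and no other member's, did not overlap, against 16.1% of all genes. Without library 32 the members at an unadjusted p under 0.05 were also 2, Pdgfra and Pdgfb, against 18.3% of all genes. The median log2 fold change of the 10 genes was 0.55 at 2 weeks (0.01 over all genes) and 0.75 without library 32. The 2-week limits were wide for the PDGF ligands, with SEs of 0.73 and 0.75 on the log2 scale, against 0.18 and 0.28 at 3 weeks.

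**Figure D4:**
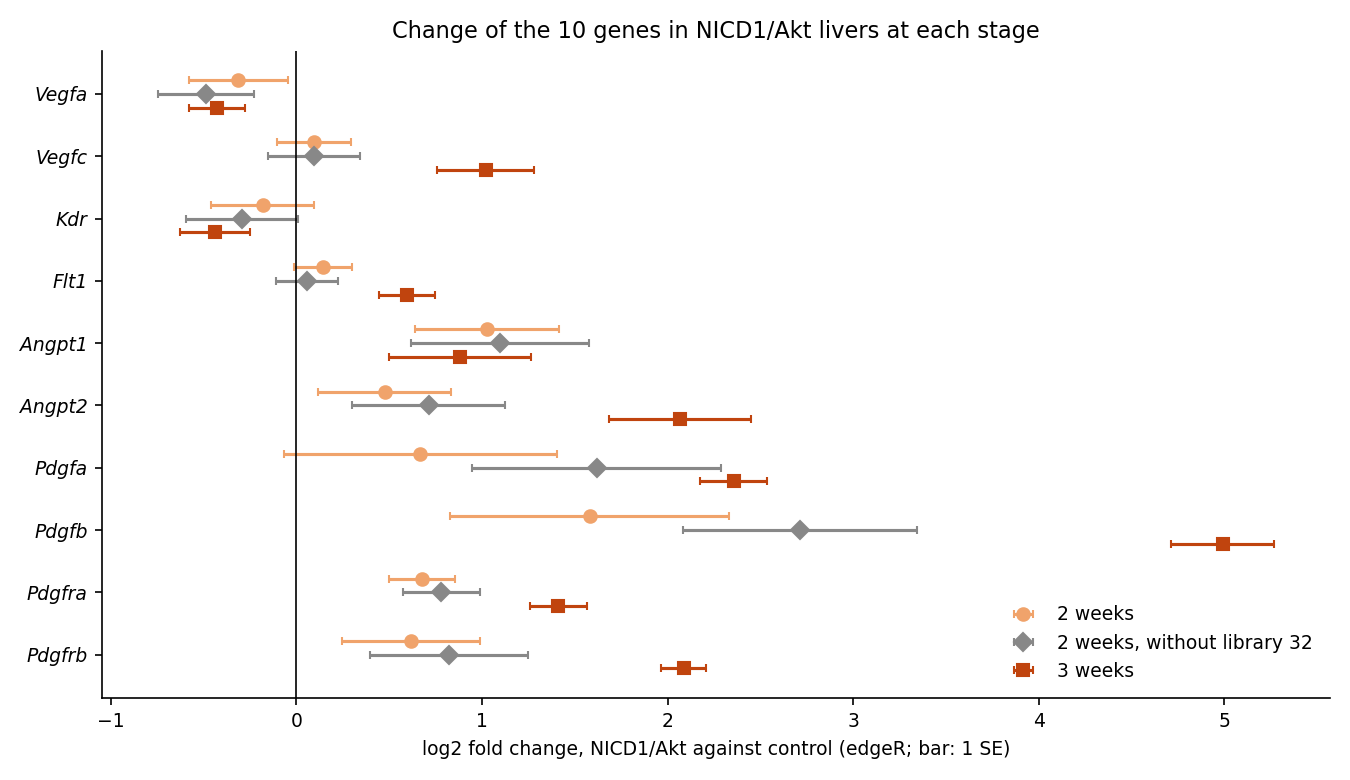
Log2 fold change of NICD1/Akt against control livers for each gene with 1 SE, at 2 weeks, at 2 weeks without library 32, and at 3 weeks. Pdgfb lies at 1.58, 2.71 and 4.99, and Vegfa and Kdr lie below 0 in all 3 with TMM scaling but above 0 at 3 weeks with library-size scaling alone.

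The effect of NICD1/Akt was larger at 3 than at 2 weeks for Pdgfb and Pdgfrb. The difference between the stages' log2 fold changes was 3.29 for Pdgfb (SE 0.90, adjusted p = 0.0231) and 1.36 for Pdgfrb (SE 0.42, adjusted p = 0.0333), 2 of the 10 genes, against 30.8% of all genes tested. The value of Angpt2 was 1.47 (adjusted p = 0.0526) and those of Vegfc and Pdgfra were 0.81 (adjusted p = 0.0882) and 0.62 (adjusted p = 0.0642). Without library 32 no member passed, with 2.17 for Pdgfb (adjusted p = 0.0576) and 1.17 for Pdgfrb (adjusted p = 0.0756). Of all 14069 genes tested, 1423 were then higher and 1528 lower. Without library 35 there were 5 members, with 3.97 for Pdgfb and 1.88 for Pdgfrb, beside 3307 higher and 3494 lower of all 13948 genes tested. The member count was also 0 without library 33 or library 12, and 1 without library 34, 10, 11, 1 or 2. Of all genes tested, 1203 were higher and 1201 lower of 14004 without library 33, and 1440 and 1358 of 14079 without library 12. Where the member count was 1, 1253 to 1460 of all genes were higher and 1243 to 1562 lower, of 13920 to 14084.

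Between the stages of the same condition, 3 members passed in NICD1/Akt livers, against 28.4% of all genes, and 2 in controls, against 37.8%. In NICD1/Akt livers Angpt2 was higher at 3 weeks (log2 fold change 1.99, adjusted p = 0.00362), whereas Angpt1 (-1.62, adjusted p = 0.00826) and Kdr (-0.84, adjusted p = 0.0378) were lower. In control livers Angpt1 (-1.37, adjusted p = 0.0221) and Pdgfra (-0.85, adjusted p = 0.00331) were lower at 3 weeks. For comparison, Angpt2 and Kdr differed by 0.52 (adjusted p = 0.302) and -0.47 (adjusted p = 0.182) in the controls. Without library 35 the NICD1/Akt count was 6, beside 3125 higher and 3564 lower of all 13948 genes tested. Without library 32 it was 5, beside 1810 higher and 2627 lower of 14069. The control count was 1 without library 32, 11 or 12. Of all genes, 2134 were then higher and 2456 lower of 14069 without library 32. Without library 11 they were 2096 and 2188 of 14084, and without library 12 they were 1878 and 2031 of 14079. These comparisons share libraries with those above, and the split in Ddx3y falls between the stages.

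Levels per length show which of the genes made up most of the signal. In CPM per kilobase of exon, the 3-week controls ranked Vegfa first at 57.5 ± 4.30 (SD, n = 3), then Kdr at 6.48 ± 1.22, Pdgfrb at 3.22 ± 0.36, Flt1 at 2.11 ± 0.15, Pdgfa at 1.88 ± 0.43, Vegfc at 1.65 ± 0.48, Pdgfra at 0.74 ± 0.09, Angpt2 at 0.62 ± 0.06, Pdgfb at 0.26 ± 0.09 and Angpt1 at 0.12 ± 0.04. Flt1, Pdgfa and Vegfc did not differ beyond their spread, nor did Pdgfra and Angpt2. In 3-week NICD1/Akt livers the order became Vegfa at 39.4 ± 7.92, Pdgfrb at 12.6 ± 1.33, Pdgfa at 8.84 ± 1.31, Pdgfb at 7.67 ± 1.88, Kdr at 4.41 ± 0.94, Vegfc at 3.08 ± 0.73, Flt1 at 2.94 ± 0.59, Angpt2 at 2.38 ± 1.16, Pdgfra at 1.81 ± 0.26 and Angpt1 at 0.20 ± 0.04. Here Pdgfa and Pdgfb did not differ beyond their spread, nor did Kdr and Vegfc, Vegfc and Flt1, Flt1 and Angpt2, or Angpt2 and Pdgfra. Pdgfrb stood above Kdr in these livers and below it in the controls.

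The remaining ligands and receptors of these families numbered 13, of which 12 were tested at 3 weeks, with 7 higher and 5 lower (median log2 fold change 0.36). Of all genes tested 38.9% were higher and 33.1% lower (median 0.06). Among the ligands, the placental growth factor Pgf, which binds Flt1, had 3 reads over the 3-week controls and 522 over the NICD1/Akt livers, a ratio of 81.4 after scaling (95% counting interval 27.7 to 396). Pdgfc (log2 fold change 1.603), Vegfd (1.94) and Pdgfd (0.90) rose, as did Vegfb by 0.39. Angpt4 had 3 and 11 reads, a ratio of 1.72 (0.453 to 9.57), and was not tested. Of the receptors and co-receptors, the PDGF receptor-like gene Pdgfrl (3.64) and Nrp2 (0.33) rose.

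Of the receptors and co-receptors of endothelium, 5 fell with TMM scaling, and with library-size scaling alone 1 of them, Nrp1, did (-0.88). Nrp1, a co-receptor for VEGF-A, went from a mean of 175 CPM to 53.9 CPM (log2 fold change -1.58, SE 0.12, adjusted p = 1.01e-05). The angiopoietin receptor Tek was lower by 0.61 on the log2 scale (-0.61, adjusted p = 0.00963), its relative Tie1 at -0.62, the Tek phosphatase Ptprb at -0.85 and the VEGF-C receptor Flt4 at -0.40 (adjusted p = 0.0494), of which Tek (0.09), Tie1 (0.08) and Flt4 (0.30) turned positive with library-size scaling alone. Nrp1 stood apart in the 3-week controls, since it was at 64.9 CPM in the 2-week controls and 49.9 CPM in the 2-week NICD1/Akt livers. With all 6 controls 2 of the list were higher, and with 5 controls, library 32 left out, 3 were. At 2 weeks none of the 11 tested passed.

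Genes around the pathway differed by group. Of 10 tip cell and angiogenic endothelial genes, 8 were higher and 1, Adgrl4, lower at 3 weeks (median 2.98, the same with Apln at its lower bound; 9 higher and none lower with library-size scaling alone), among them Mcam (log2 fold change 5.06), the chemokine receptor Cxcr4 (3.95), the guidance receptor Unc5b (3.22) and Esm1 (6.88), whose product marks VEGF-stimulated tip cells. Apln, the apelin ligand, had no reads in the 3-week controls and 869 in NICD1/Akt livers, at least 135-fold higher with a floor of 3 counts for the 3 controls together. Mcam and Unc5b are also made by cells other than endothelium. Of all 13408 genes tested, 5218 were higher and 4432 lower with TMM scaling, and 9076 were higher and 1287 lower with library-size scaling alone.

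Of 9 genes of the hypoxia axis, which controls Vegfa in low oxygen, 8 were tested, 2 were higher and 5 lower (median -0.35). Epas1, which encodes HIF-2 alpha, was lower (-1.44), as were the prolyl hydroxylase Egln2 (-0.68) and the HIF partner Arnt (-0.41), though with library-size scaling alone Epas1 was at -0.73, Egln2 at 0.02 and Arnt at 0.30, while Egln3, itself induced by hypoxia, was higher (1.44), as was Egln1. Hif1a was at -0.39, or 0.32 with library-size scaling alone, under which the list had 5 higher and 1 lower (median 0.36). All 13408 genes tested had 9076 higher and 1287 lower under that scaling. Of 12 hypoxia target genes, 7 were higher and 1, Bnip3, lower (median 0.88), with the glycolytic regulator Pfkfb4 at 6.11, the mTOR inhibitor Ddit4 at 2.42, the glucose transporter Slc2a1 at 2.30 and the carbonic anhydrase Car9 at 3.73 on the log2 scale. With library-size scaling alone 10 targets were higher and 0 lower (median 1.58). With TMM scaling 38.9% of all genes tested were higher and 33.1% lower. Vegfa, a target of the same factors, was at -0.43 in this comparison and at 0.27 with library-size scaling alone. Ddit4 was low in the 3-week controls, at a mean of 7.83 CPM against 92.3 CPM in the 2-week controls. In NICD1/Akt livers it was at 24.6 CPM at 2 weeks and 38.5 CPM at 3 weeks. Its 2-week log2 fold change was -1.90 (edgeR adjusted p = 0.52).

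Of 13 genes whose products relay signals from VEGF and PDGF receptors, 5 were higher (Nck2, Shc2, Cblb, Nck1 and Plcg1) and 3 lower (Shb, Sos1 and Grb2) at 3 weeks, with a median of 0.11. Of all genes tested 38.9% were higher and 33.1% lower with a median of 0.06, and the list exceeded neither share. The adaptor Nck2 rose by 3.06 and the ubiquitin ligase Cblb by 0.97 on the log2 scale, Shb was at -1.57, and Shc2 had 3 reads in controls and 244 in NICD1/Akt livers (ratio 38.0, 95% counting interval 12.9 to 186). Library-size scaling alone gave 10 higher and 1 lower, Shb, with Sos1 at 0.26 and Grb2 at 0.39. Of all 13408 genes tested it gave 9076 higher and 1287 lower. The endothelial nitric oxide synthase Nos3 was at -0.02 (adjusted p = 0.926).

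**Figure D5:**
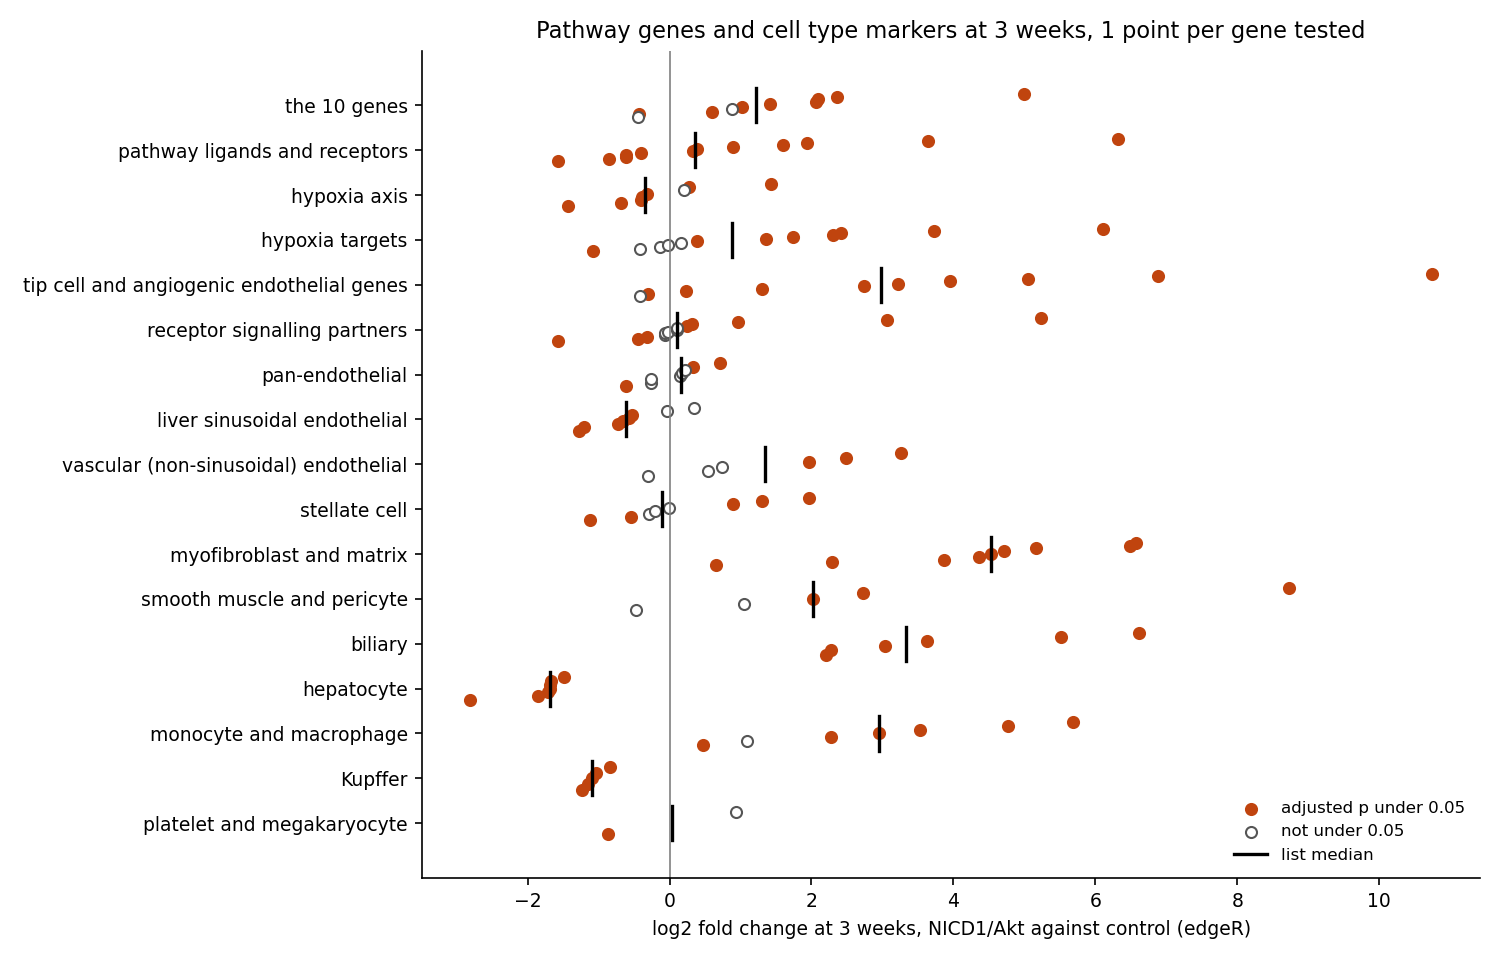
Log2 fold change at 3 weeks of every gene tested in each list, 1 point per gene, filled where the adjusted p was under 0.05, with a bar at the list median. The 10 genes run from -0.44 to 4.99 with a median of 1.22, and the sinusoidal endothelial list lies mostly below 0 (median -0.62 with TMM scaling, 0.09 with library-size scaling alone), beside myofibroblast genes at a median of 4.53.

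The genes whose levels followed each member most closely over the 12 libraries were listed as a description, by Pearson's r of log2 CPM over 10371 genes, where much of each r comes from the 4 groups that the libraries share. Kdr ran with its fellow endothelial receptor Tek (0.974) and with F8, which encodes coagulation factor VIII (0.969). Pdgfb ran with Rassf9 (0.997) and Trim32 (0.993), and Pdgfrb with Fam129b (0.994) and Fam129a (0.987). Pdgfra was closest to the matrix gene Bgn (0.974) and to Rarg (0.974), Pdgfa to Capns1 (0.974) and Rnf122 (0.968), and Angpt2 to Pfkl (0.960) and Fryl (0.957). The nearest genes of Angpt1 were Plac9a (0.954) and Tgfbi (0.902), those of Vegfa Wdr7 (0.943) and Cald1 (0.939), those of Vegfc Ednra (0.925) and Kirrel (0.917), and those of Flt1 Emilin2 (0.890) and Hcfc1 (0.883). Among the members themselves, the highest r was that of Pdgfb with Pdgfrb (0.961), while Vegfa ran against Pdgfra (-0.819) and Pdgfa (-0.802).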

How the data were processed

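Liver RNA was sequenced with a stranded poly(A) kit in 12 libraries, and the authors deposited 2 tables of raw read counts per gene, 1 per stage, with 6 libraries each. The methods name STAR, HTSeq and mm10, while the submitters' processing notes name STAR 2.7, Subread 2.0.6 and GRCm39, so no coordinate of the counting is given. Gene IDs were matched to GENCODE M21 symbols (21573 of 21807). The members, lists, ratios and motifs were chosen with earlier results of these data known.

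Counts were tested with edgeR 4.0.16 (R 4.3.3; filterByExpr, TMM, quasi-likelihood fit, Benjamini-Hochberg, adjusted p under 0.05). The fit of a stage used the 6 libraries of that stage, and comparisons between stages used all 12. SEs were derived from the fold change and F. The effects of other scalings, filters, tools (DESeq2 1.42.0, limma 3.58.1), controls and omitted libraries are given in the closing section. The fit was checked on counts simulated with known changes. Ratios were tested by exact permutation within stages (counts + 0.5, and for a list the mean log2(CPM + 0.5)). Counting intervals and floors cover counting error only. Named genes were all members, all other ligands and receptors, up to 4 genes with the smallest adjusted p of each other pathway list, defining cell type markers, and the 2 genes most like each member (mean of at least 5 CPM). Egln1, Hif1a, Bnip3, Adgrl4, Apln, Nck1, Plcg1, Sos1, Grb2 and Nos3 were named after their values were seen. Depth was 13136892 to 19594839 counts per library.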

Additional observations from a re-analysis of the deposited data

Results flagged for a closer look

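The change in NICD1/Akt livers differed between the stages for 2 of the 10 genes, by a test of the difference itself over all 12 libraries. The same test passed in 30.8% of all genes tested. For Pdgfb the log2 fold change was larger at 3 than at 2 weeks by 3.29 (SE 0.90, edgeR adjusted p = 0.0231), with every NICD1/Akt library above every control at 3 weeks and with library 32 above 2 of the 3 NICD1/Akt libraries at 2 weeks. For Pdgfrb the difference was 1.36 (SE 0.42, adjusted p = 0.0333). Without library 32 the values were 2.17 (adjusted p = 0.0576) and 1.17 (adjusted p = 0.0756), which did not pass.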

How the results depend on the processing

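At 3 weeks Pdgfb, Pdgfa, Pdgfrb, Pdgfra, Angpt2 and Flt1 stayed higher in all 17 alternatives tried, and the members called higher numbered 6 to 8. The members called lower (1) were 0 with library-size scaling, upper-quartile scaling or all 12 libraries in 1 fit, 2 with DESeq2 or the likelihood ratio test, and 0 to 2 when 1 library was left out. The 1 gene called lower was not always Vegfa. It was Kdr with all 6 controls (edgeR adjusted p = 0.0144, Vegfa 0.0876) and with 5 controls (0.0352, Vegfa 0.0568). Without library 11 it was Kdr as well (0.0171, Vegfa 0.0782). The 2-week members at an unadjusted p under 0.05 (2) were 1 to 2 with 1 library left out. Pdgfb joined them with DESeq2 (unadjusted p = 0.0343), limma-voom (0.0418), the edgeR likelihood ratio test (0.0403) and all 12 libraries in 1 fit (0.0226). The members whose effect differed between stages (2) were 6 with library-size scaling, 5 with upper-quartile scaling, 4 with DESeq2, 1 with limma-voom and 0 to 5 with 1 library left out. Counts over all genes moved as well. They were 3520 higher and 297 lower of 13829 with library-size scaling, and 3307 higher and 3494 lower of 13948 without library 35. Of the same 13829 they were 2633 and 1124 with upper-quartile scaling, 2707 and 2459 with DESeq2, and 1521 and 2073 with limma-voom. Without library 33 they were 1203 and 1201 of 14004. Members that differed between the stages of NICD1/Akt livers (3) were 5 with DESeq2, limma-voom or the likelihood ratio test and 2 to 6 with 1 library left out (5 without library 32, 6 without library 35), and in controls (2) they were 1 with limma-voom and 1 to 3 with 1 library left out (1 without library 32, 11 or 12). Between the NICD1/Akt stages 2103 of all 13829 genes were higher and 2509 lower with DESeq2, and 2094 and 2518 with limma-voom. The likelihood ratio test gave 1729 and 2554. With 1 library left out, 668 to 3125 of all genes were higher and 1317 to 3564 lower. Between the control stages limma-voom gave 2329 higher and 1970 lower of 13829. With 1 library left out these were 1862 to 2815 and 1942 to 3416.

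Of the 9 ratios, 6 passed and 3 to 6 did with 1 library left out (6 without library 32, and 3 without library 35, an alternative chosen after seeing the data). With library-size scaling the other ligands and receptors had 1 lower gene, the hypoxia axis 5 higher and 1 lower, the hypoxia targets 0 lower, the tip cell genes 0 lower, and the signalling partners 10 higher and 1 lower. Under that scaling 9076 of all 13408 genes tested were higher and 1287 lower. With all 6 controls the ligands and receptors had 2 higher, the hypoxia axis 1 higher and 2 lower and the partners 3 higher. With 5 controls, without library 32 (an alternative chosen after seeing the data), the ligands and receptors had 3 higher and the hypoxia axis 2 lower. Directions turned with library-size scaling for Vegfa (0.27) and Kdr (0.26) at 3 weeks and for the stage differences of Vegfa (0.42; 0.0055 with upper-quartile scaling), Kdr (0.30) and Angpt1 (0.27), and with all 6 controls for Angpt1 at 3 weeks (-0.079). With 1 library left out, the 2-week value of Kdr ran from -0.40 to 0.066, that of Pdgfa from -0.14 to 1.62, and the stage difference of Angpt1 from -0.46 to 0.15. The cause of these changes was not tested. Angpt1 had 5 to 10 reads in each of the 3-week controls, the lowest depth behind any of the 10 genes. No paired analysis was possible because the library numbers are not shared between groups.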
